A study of Rattus norvegicus with 6 samples.

Results

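The striated muscle genes Myl4, Ldb3, Cryab, Acta1, Ckm, Mb, Tnnt3, Tnni2, Mylpf and Atp2a1 were followed in visceral fat taken from beside the pancreas of Wistar rats. Each probe set whose annotation named exactly 1 gene, and named it by 1 of these 10 symbols, was a member. This gave 15 probe sets for 9 of the 14217 genes measured. The gene Mylpf is listed as Myl11 in the array annotation and was found through its gene ID, which added 1 probe set. Myl4, Ldb3 and Cryab were chosen by their higher values on the obese arrays, so their differences are given as a description with no test. The other 7 genes were included to look for muscle tissue in the samples. The lean group held 3 rats on standard chow (lean 14, 18 and 19), and the obese group held 3 rats made obese over 30 days on a high-caloric cafeteria diet (obese 29, 32 and 42). Whole tissue from each rat was hybridised to 1 Affymetrix rat array, and values are log2 expression per probe set. In such bulk samples fewer cells of a type and less RNA per cell cannot be told apart.

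Striated muscle contracts when myosin filaments pull on actin filaments that are anchored in Z-discs. Each myosin head carries light chains, and the troponin complex on the actin filament makes the pull depend on calcium, which a calcium pump then returns to the reticulum. Skeletal fibres and heart muscle use different sets of these proteins, while smooth muscle of vessels and gut has its own myosin and actin and lacks troponin. Myl4 encodes the essential light chain of atrial and embryonic striated muscle. Ldb3, also called ZASP or Cypher, encodes a PDZ and LIM domain protein of the Z-disc. Cryab encodes alpha-B-crystallin, a small heat shock protein that is abundant in the lens, heart and skeletal muscle and is also made in other tissues. Acta1 (skeletal alpha-actin), Ckm (muscle creatine kinase) and Mb (myoglobin) are products of skeletal fibres. So are Tnnt3 and Tnni2 (fast skeletal troponin T and I), Mylpf (fast regulatory light chain) and Atp2a1 (fast fibre calcium pump).

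Promoter windows of Myl4 and Ldb3, which were higher on the obese arrays, and of Acta1, which was not, are shown to compare their muscle motifs. Each window is 300 bases of RefSeq sequence in build GRCr8, from 250 before the gene's start to 50 after it. Windows were matched for 8 of the 10 genes, and Cryab and Tnnt3 had none. Capitals mark the E-box CAGCTG and the CArG box, which binds serum response factor; the MEF2 site was searched as well, all on both strands, and no matches overlapped. Myl4 lies at chr10:89975900-89976199 on the plus strand, Ldb3 at chr16:9924630-9924929 and Acta1 at chr19:68784145-68784444, both on the minus strand.
Myl4: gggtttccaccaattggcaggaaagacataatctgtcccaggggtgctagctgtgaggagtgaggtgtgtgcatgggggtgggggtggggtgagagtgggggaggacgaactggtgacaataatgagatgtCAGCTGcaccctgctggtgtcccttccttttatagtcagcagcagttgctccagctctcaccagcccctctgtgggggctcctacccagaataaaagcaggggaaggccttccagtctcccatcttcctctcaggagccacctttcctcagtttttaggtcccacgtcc
Ldb3: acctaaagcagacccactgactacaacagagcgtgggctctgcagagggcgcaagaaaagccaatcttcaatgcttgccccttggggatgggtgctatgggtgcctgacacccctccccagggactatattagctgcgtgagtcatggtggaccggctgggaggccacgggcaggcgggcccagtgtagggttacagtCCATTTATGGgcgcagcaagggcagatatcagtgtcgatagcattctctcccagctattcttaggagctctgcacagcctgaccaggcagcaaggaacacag
Acta1: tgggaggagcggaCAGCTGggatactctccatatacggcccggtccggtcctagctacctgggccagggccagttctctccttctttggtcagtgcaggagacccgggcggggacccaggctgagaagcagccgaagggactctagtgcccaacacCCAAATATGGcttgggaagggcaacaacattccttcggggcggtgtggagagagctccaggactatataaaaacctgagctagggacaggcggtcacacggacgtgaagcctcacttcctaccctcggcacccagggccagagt

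The Myl4 window held 1 CAGCTG at positions -119 to -114 from the start. The Ldb3 window held a CArG box at -52 to -43 and no CAGCTG, and the Acta1 window held a CArG box at -94 to -85 and a CAGCTG at -237 to -232. CAGCTG also occurred in the windows of Ckm, Mylpf and Atp2a1, and none of the 8 windows held a MEF2 site. Of 33469 rat windows of this length 15.1% held CAGCTG, 1.64% a CArG box and 3.29% a MEF2 site. These matches are letters in a window and show no binding.

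Myl4 was the member with the largest difference between the diets. Its 1 probe set lay at 5.30 on lean 14, 5.48 on lean 18 and 5.12 on lean 19, whereas obese 29, 32 and 42 gave 6.89, 7.75 and 6.78. Every obese array was above every lean array, by at least 1.30. The lean mean was 5.30 ± 0.18 (SD, n = 3) and the obese mean 7.14 ± 0.53 (SD, n = 3), a difference of 1.84 (SE 0.25), or 3.57-fold. All 3 lean values lay under the median of their array (5.63 to 5.68), and all 3 obese values lay above it. Obese 32 stood highest, and without it the difference was 1.53.

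Ldb3 was measured by 6 probe sets, which fell into bright ones with a large difference and dim ones with little or none. On the brightest, 1371984_at, the lean arrays lay at 7.47, 7.08 and 7.57 and the obese arrays at 8.41, 8.80 and 8.07, in the order 14, 18, 19 and 29, 32, 42. On 1375303_at they lay at 6.58, 6.37 and 6.43 against 7.59, 7.96 and 7.61. On 1375982_at they lay at 6.23, 6.12 and 5.98 against 7.49, 7.85 and 7.55. On these 3 probe sets every obese array was above every lean array and obese 32 was highest. The differences were 1.05 (SE 0.21), 1.26 (SE 0.13) and 1.52 (SE 0.12), or 2.08-, 2.40- and 2.87-fold.

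The 3 dim Ldb3 probe sets stayed below the array median on all 6 arrays. On 1372737_at the lean arrays lay at 4.87 to 4.996 and the obese arrays at 5.12 to 5.38, again without overlap, with a difference of 0.35 (SE 0.099). On 1397273_at the difference was 0.12 (SE 0.11) and on 1394544_at it was -0.081 (SE 0.086). Both of these were under the lower quartile of the array (4.41 to 4.49) on all 6 arrays, and their groups overlapped. Which Ldb3 transcripts each probe set detects was not analysed here. With all 6 probe sets averaged, the Ldb3 difference was 0.70.

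Cryab was higher on obese 29 and obese 32 but barely so on obese 42. Its 1 probe set lay at 9.34, 9.41 and 9.33 on lean 14, 18 and 19, a range of 0.077. Obese 29, 32 and 42 gave 10.91, 10.74 and 9.61, a range of 1.29. The groups did not overlap, but obese 42 was only 0.21 above the highest lean array. The means were 9.36 ± 0.041 (SD, n = 3) and 10.42 ± 0.70 (SD, n = 3), a difference of 1.06 (SE 0.31). Without obese 42 it was 1.46 (SE 0.096). Cryab was above the upper quartile (7.45 to 7.51) on all 6 arrays.

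**Figure D1:**
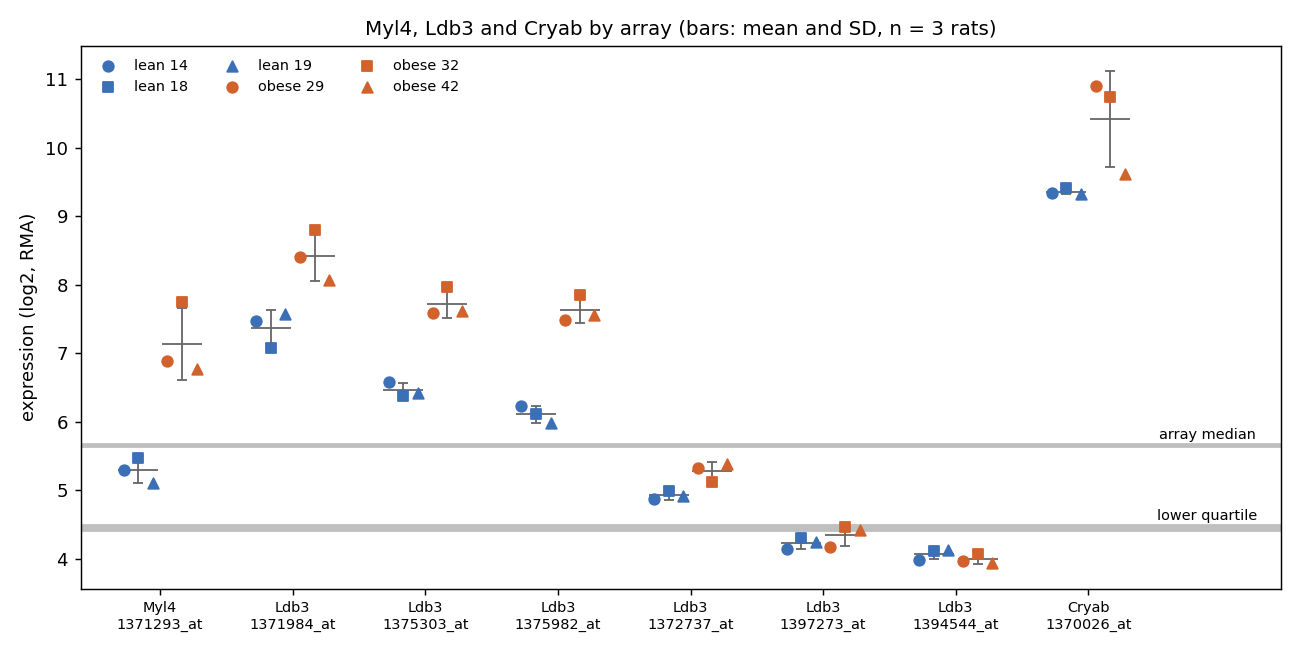
Expression (log2, vertical axis) of the 8 probe sets of Myl4, Ldb3 and Cryab on the 3 lean (blue) and 3 obese (orange) arrays, with bars for mean and SD and grey bands for the range of array medians and lower quartiles. Myl4, Cryab and 4 of 6 Ldb3 probe sets have every obese point above every lean point, and the 2 dimmest Ldb3 probe sets do not.

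Of the 8 probe sets of these 3 genes, 6 had every obese array above every lean array. Among all 31042 probe sets tested 11.8% did so, and 7.02% had every obese array below; since the genes were chosen for their rise, nothing is read from this count. With limma and adjustment over all probe sets 3 were called at an adjusted p under 0.05, which is 0.00966% of those tested. They were RT1-Bb, which lies in the histocompatibility complex, at -4.67, Slc22a3, a transporter of organic cations, at -0.99, and probe set 1375982_at of Ldb3. Nothing is read from the last, since Ldb3 was chosen on the same values. The count was 31 without obese 42, and 1 without lean 14 or without lean 18.

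The 3 chosen genes did not order the obese rats alike. Obese 32 was highest and obese 42 lowest for Myl4 and for the brightest Ldb3 probe set, while Cryab was highest on obese 29. Control probe sets at the 3' end exceeded those at the 5' end, a sign of RNA quality, by 1.28 on obese 42 against 0.79 to 1.10 on the other 5 arrays. The labels describe the other 5 arrays as re-analysed and give no such remark for obese 42. The part of either in the lower Cryab value was not tested. Without both lean 14 and obese 42 the differences were 2.02 for Myl4, 1.28 for the brightest Ldb3 probe set and 1.46 for Cryab.

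None of the skeletal fibre genes passed the test for a difference between the diets. Of the 8 probe sets of Acta1, Ckm, Mb, Tnnt3, Tnni2, Mylpf and Atp2a1, 0 were called by limma and 0 reached an unadjusted p under 0.05. Over all 31042 probe sets 0.00966% were called, and 2017 were higher and 1653 lower at an unadjusted p under 0.05. With 8 probe sets, counts of 0 are near these shares, so little is read from them. Higher means in obese rats were seen for 5 and lower means for 3, with a median difference of 0.12 against 0.020 over all probe sets. Only Acta1 and Tnnt3 lay above the array median on any array, each on 2 arrays. Over all probe sets 11.8% had every obese array above every lean array, and 7.02% had every obese array below. Near that share, the groups separated for 1 of the 8, the dimmer Tnnt3 probe set, by 0.041.

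Acta1 was the most variable of them, and its high values were on lean arrays. It lay at 6.10 on lean 14, 4.06 on lean 18 and 7.21 on lean 19, and at 4.47, 4.30 and 3.85 on obese 29, 32 and 42. On 3 arrays, lean 18, obese 32 and obese 42, it was under the lower quartile of the array. The lean mean was 5.79 ± 1.6 (SD, n = 3) and the obese mean 4.21 ± 0.32 (SD, n = 3). The difference of -1.58 (SE 0.70, limma adjusted p = 0.436) had a 95% confidence interval from -3.24 to 0.075. It was -0.87 without lean 19 (limma adjusted p = 0.6165) and -2.44 without lean 18 (SE 0.35, limma adjusted p = 0.467). Ckm lay at 4.73, 4.52 and 5.46 in lean and at 4.50, 4.65 and 4.63 in obese rats, with lean 19 alone apart. Its difference was -0.31 (interval -0.85 to 0.23, adjusted p = 0.615), -0.032 without lean 19 and -0.50 without lean 18.

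Neither troponin gene passed the test. The brighter Tnnt3 probe set lay at 5.11, 5.53 and 5.05 in lean and at 5.19, 6.01 and 5.90 in obese rats, so that obese 29 lay within the lean range. Its difference of 0.47 (interval -0.082 to 1.03, adjusted p = 0.476) did not pass. Without obese 29 it was 0.73 (SE 0.16, limma adjusted p = 0.264) and did not pass. The dimmer probe set did not pass either, at 0.13 (interval -0.059 to 0.33, adjusted p = 0.551). Tnni2 lay at 4.89 to 5.29 in lean and 4.93 to 5.14 in obese rats, a difference of -0.12 (interval -0.42 to 0.18).

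Myoglobin, the light chain and the calcium pump were dim throughout. Mb lay at 4.21 to 4.39 in lean and 4.22 to 4.80 in obese rats, a difference of 0.20 (interval -0.16 to 0.55). Mylpf lay at 3.56 to 3.81 and 3.70 to 3.89, under the lower quartile on all 6 arrays, with a difference of 0.099 (interval -0.14 to 0.34). Atp2a1 lay at 4.67 to 5.05 and 5.01 to 5.22, a difference of 0.25 (interval -0.028 to 0.53, adjusted p = 0.457).

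**Figure D2:**
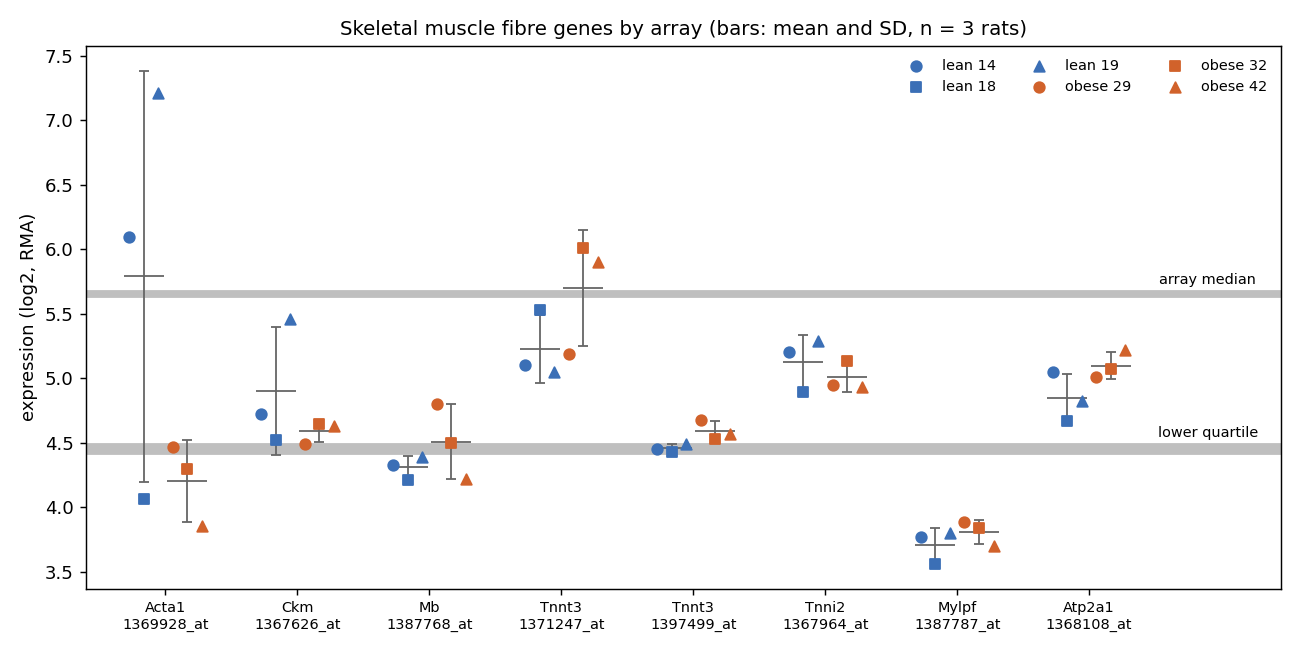
Expression (log2, vertical axis) of the 8 probe sets of skeletal fibre genes on the 3 lean (blue) and 3 obese (orange) arrays, with bars for mean and SD and grey bands for array medians and lower quartiles. Acta1 is high on lean 19 and lean 14 only, and Mylpf is under the lower quartile on every array.

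Smooth muscle genes were, like Acta1, highest on lean 19. Each of these 10 markers had a lower mean in obese rats (median difference -0.87), but 0 were called by limma and 0 had an unadjusted p under 0.05. Their mean level was 8.67 on lean 14, 7.24 on lean 18 and 9.96 on lean 19, against 7.44 to 8.08 on the obese arrays. Not every marker was high on lean 14. Lmod1 lay at 5.29 there, below every obese array, and Acta2, Smtn and Myocd were each below some obese array. The other markers were above every obese array there. Mylk, myosin light chain kinase, lay at -0.86 (SE 0.39, adjusted p = 0.444), and Des, which is in this list too, at -1.33. Actg2, the enteric smooth muscle actin, chosen after its values were seen, lay at 10.70, 5.42 and 12.08 on the lean arrays and at 9.33, 7.03 and 5.42 on the obese arrays. Myh11, the smooth muscle myosin, lay at 10.57, 9.04 and 12.02 against 9.71, 9.80 and 9.45. Tnnc2, fast skeletal troponin C, chosen after its values were seen, was also highest on lean 19, at 6.36 against 3.99 to 4.78 elsewhere. The fast fibre genes Mybpc2 and Pygm, likewise chosen, were highest on lean 19 too, at 5.45 and 6.56. Others were not, such as Myl1 and Myh1, which were highest on obese 32. Whether smooth muscle or skeletal fibre RNA has a part in the Acta1 and Ckm values was not tested. Among the lean arrays, lean 19 had the lowest Myl4 value and the highest value of the brightest Ldb3 probe set.

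**Figure D3:**
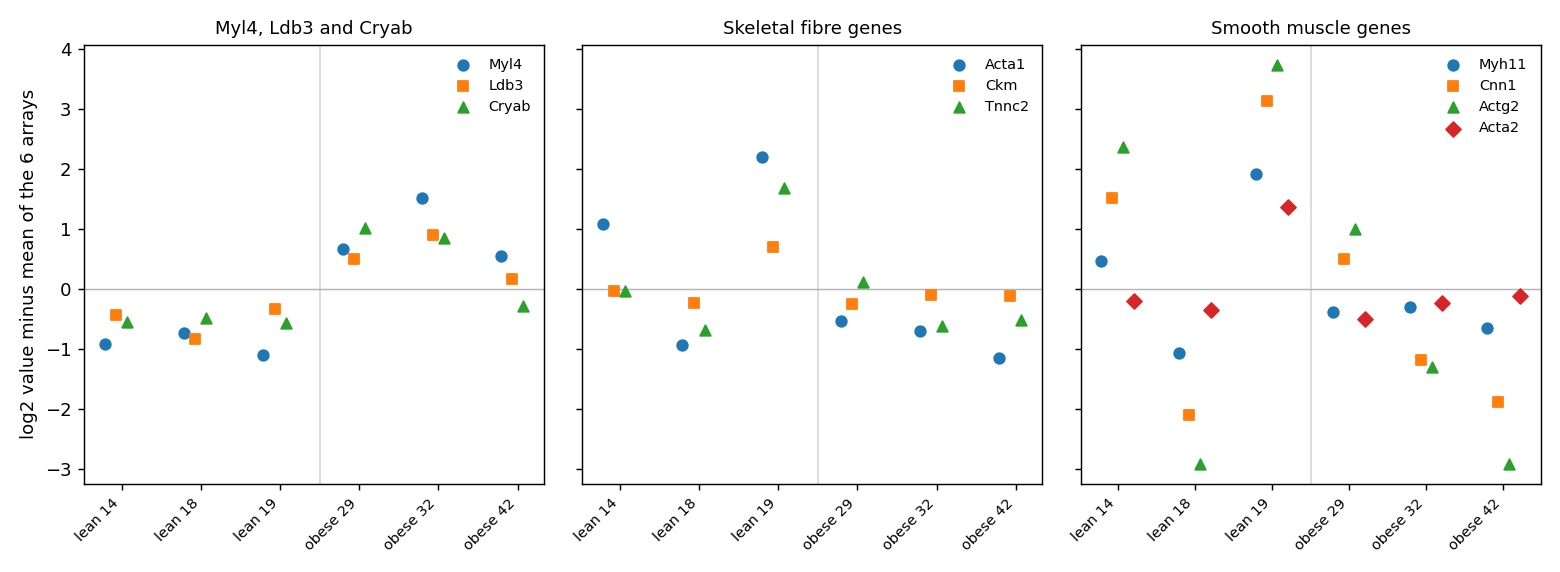
Log2 value minus the mean of the 6 arrays (vertical axis) for Myl4, Ldb3 (brightest probe set) and Cryab, for Acta1, Ckm and Tnnc2, and for the smooth muscle genes Myh11, Cnn1, Actg2 and Acta2, by array. Myl4 and Ldb3 are above their mean on all 3 obese arrays and Cryab on 2 of them, while each gene of the other panels is highest on lean 19.

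Other genes of skeletal and heart muscle were counted by the brightest probe set of each gene. Over all 14217 genes 7.2% were higher and 6.13% lower at an unadjusted p under 0.05, and the median difference was 0.0165. Of 20 other fast fibre genes 10 were higher and 10 lower, 0 were called, 0 had an unadjusted p under 0.05, and the median was -0.010. Myoz1, a Z-disc protein of fast fibres, lay at -0.40 (SE 0.21), and Myl1, the fast essential light chain, was higher by 0.29 (SE 0.16).

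Of these 20 fast fibre genes 5 lay above the array median on all 6 arrays, and 8 lay under the lower quartile on all 6. The 5 were Myh1, Tpm1, Eno3, Myoz1 and Myl1. Tpm1, a tropomyosin that smooth muscle and other cells also make, lay at 10.76, 10.11 and 11.72 in lean and 10.54, 10.10 and 10.26 in obese rats, highest on lean 19.

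The 5 probe sets annotated as Myh1, a fast myosin heavy chain, lay between 7.22 and 10.93. Myh2 and Myh4, the other adult fast myosins, lay at 3.19 to 3.60 and 3.17 to 3.34, and whether the bright probe sets measure Myh1 was not tested. The brightest lay at 10.40, 10.24 and 10.61 in lean and 10.42, 10.93 and 10.45 in obese rats, which overlap. On 3 of the 5 every obese array was above every lean array, with differences of 0.33 (SE 0.098) for the dimmest, 0.35 (SE 0.14) and 0.34 (SE 0.13). The other 2 differed by 0.18 (SE 0.17), for the brightest, and 0.28 (SE 0.18). Every obese array was above every lean array for 11.8% of all 31042 probe sets. The 5 carry the same gene annotation and are not separate results, so little is read from the count of 3.

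Of 21 slow fibre and heart genes measured 12 were higher and 9 lower, with 2 higher and 0 lower at an unadjusted p under 0.05, 0 called, and a median of 0.042. The 2 were Myl2, the regulatory light chain of heart and slow fibres, at 0.50 (SE 0.090, adjusted p = 0.183), and Mybpc3, cardiac myosin binding protein C, at 0.33 (SE 0.12, adjusted p = 0.368). Myl2 lay at 4.54, 4.45 and 4.63 in lean and 5.07, 5.08 and 4.95 in obese rats. Its second probe set differed by 0.091. Myh7, the slow myosin heavy chain, lay at 3.71 to 3.93 on all 6 arrays.

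Of 10 developmental muscle genes measured 8 were higher and 2 lower, with 1 in each direction at an unadjusted p under 0.05 and 0 called. These were Ncam1, an adhesion molecule, at 0.23 (SE 0.082), and Mef2c, a transcription factor of muscle and other tissues, at -0.55 (SE 0.15, adjusted p = 0.305). Myod1, a myogenic regulator, lay at 3.40 to 3.65 on all 6 arrays, under the lower quartile. Myog, another, lay at 4.91 to 5.29.

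No relative of the 3 chosen genes listed here passed the adjusted test. Only 0.00966% of all probe sets passed it, so little is read from this. Of 14 Z-disc and PDZ-LIM genes measured 3 were higher and 11 lower, with 0 higher and 1 lower at an unadjusted p under 0.05, 0 called, and a median of -0.14. Pdlim2, a PDZ-LIM protein, lay at -0.54 (SE 0.19, adjusted p = 0.373), and Des, the intermediate filament desmin, at -1.33 (SE 0.64, adjusted p = 0.462). Of 7 small heat shock protein genes 4 were higher and 3 lower, with 1 higher and 0 lower at an unadjusted p under 0.05 and 0 called. Hspb7, a cardiovascular member, differed by 0.25 (SE 0.077, adjusted p = 0.331) and Hspb1 by 0.19 (SE 0.10).

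Of 8 myosin light chain genes measured, Myl4 not counted and Myl1, Myl2 and Mylpf among them, 7 were higher and 1 lower. The median was 0.21, with 1 (Myl2) higher and 0 lower at an unadjusted p under 0.05 and 0 called. Myl12a, a regulatory light chain of non-muscle myosin, differed by 0.22 (SE 0.095). Of 10 genes of creatine and calcium handling 4 were higher and 6 lower, 0 were called and 0 had an unadjusted p under 0.05. Among them Atp2b1 and Atp2b4, calcium pumps of the cell membrane, lay at -0.20 (SE 0.087) and -0.41 (SE 0.19).

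**Figure D4:**
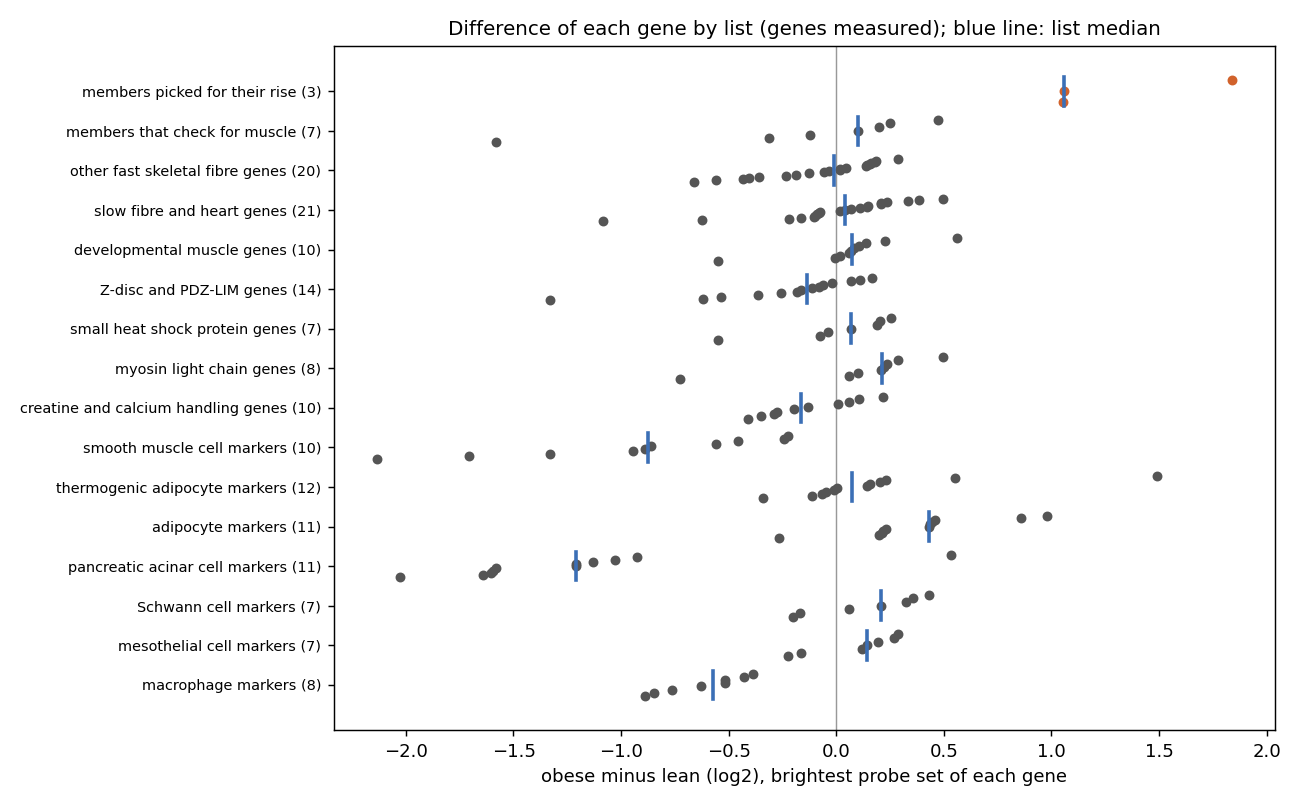
Obese minus lean difference (log2, horizontal axis) of each gene, by its brightest probe set, in the 2 groups of members and 14 other lists, with the number measured in parentheses and a blue line at the list median. The 3 chosen genes (orange) lie from 1.05 to 1.84, and the medians of the skeletal and heart lists lie between -0.010 and 0.099.

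The tissue expressed its defining adipocyte markers on all arrays, with Adipoq, the adipokine adiponectin, at 12.42 to 12.83. Of 11 adipocyte markers measured 10 were higher and 1 lower, 5 were higher and 0 lower at an unadjusted p under 0.05, 0 were called, and the median was 0.43. Over all 14217 genes 7.2% were higher and 6.13% lower at that p, and 0.00966% of all probe sets were called. Plin4 and Cidec, lipid droplet proteins, differed by 0.86 (SE 0.13, adjusted p = 0.152) and 0.44 (SE 0.093, adjusted p = 0.234). The mean adipocyte level was 11.52 to 11.67 in lean and 11.90 to 12.14 in obese rats. Obese 32 was highest for it, for Myl4 and for the brightest Ldb3 probe set. Among the lean arrays it was highest on lean 19, where Myl4 was lowest. On obese 29 and obese 42 it was 11.95 and 11.90, while Cryab lay at 10.91 and 9.61. The part of the adipocyte level in the differences of Myl4, Ldb3 and Cryab was not tested.

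Thermogenic adipocytes share some genes with muscle, and their markers were mixed. Of 12 such markers 7 were higher and 5 lower, 3 were higher and 0 lower at an unadjusted p under 0.05, 0 were called, and the median was 0.073. Over all genes the shares at that p were 7.2% higher and 6.13% lower. Fabp3, which carries fatty acids in heart and muscle cells, differed by 1.49 (SE 0.18, adjusted p = 0.146) and Cpt1b, the muscle form of carnitine palmitoyltransferase, by 0.55 (SE 0.12, adjusted p = 0.244). Ucp1, the uncoupling protein that defines thermogenic fat, lay at 3.997 to 4.33 on all 6 arrays, under the lower quartile. Cidea, chosen after its values were seen, lay at 9.96 to 10.63, above the upper quartile. Of the 12 markers, 3 lay above the array median on all 6 arrays and 6 lay under the lower quartile on all 6. The list mean was 5.18 to 5.39 in lean and 5.38 to 5.54 in obese rats.

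Schwann cells of nerves can express Cryab, and 5 of 7 of their measured markers were higher and 2 lower. An unadjusted p under 0.05 was reached by 3 of the higher and 0 of the lower ones, and 0 were called. Over all genes the shares at that p were 7.2% higher and 6.13% lower. Mbp, myelin basic protein, differed by 0.35 (SE 0.081) and S100b, also made by adipocytes, by 0.43 (SE 0.10). Their mean level was 7.70 to 7.74 in lean and 7.85 to 7.88 in obese rats. The part of these cells in the Cryab difference was not tested, and obese 42, where Cryab was near the lean level, had a list mean of 7.85.

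Markers of 3 other cell types, 0 of them called, were read beside the chosen genes. Of 11 acinar markers 1 was higher and 10 lower, with 0 at an unadjusted p under 0.05 and 0 called; their mean was 9.36 on lean 14 and 4.44 to 4.99 elsewhere, and Prss1, trypsinogen, lay at 10.62 on lean 14. Pnliprp1 and Cel, pancreatic lipases, differed by -1.64 (SE 1.2) and -1.21 (SE 0.97). Of 7 mesothelial markers 5 were higher and 2 lower, with 0 at an unadjusted p under 0.05, 0 called, and means of 9.15 to 9.38 in lean and 8.93 to 9.76 in obese rats. Krt18 and Krt19, keratins, differed by 0.28 (SE 0.20) and 0.27 (SE 0.21). Of 8 macrophage markers 8 were lower, 2 at an unadjusted p under 0.05, with 0 called and means of 9.16 to 9.78 and 8.26 to 9.40. The lowest mean was on obese 42. Over all genes 6.13% were lower at an unadjusted p under 0.05. Ctss, a lysosomal protease, and Lyz2, lysozyme, differed by -0.77 (SE 0.24, adjusted p = 0.337) and -0.63 (SE 0.22, adjusted p = 0.366).

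Genes with the profile closest to each chosen gene were found by the root mean square distance between profiles centred on their mean over the 6 arrays. All genes near a gene chosen for its rise are themselves high on obese arrays, so their differences are no separate result. Closest to Myl4 were Fabp3 (distance 0.25), Klhl31, a kelch protein of muscle (0.28), Grifin, a galectin-related protein (0.31), Dlg2, a scaffold protein (0.33), and Adra2c, an alpha-2 adrenergic receptor (0.37). The median distance over all genes was 0.98, and Ldb3 and Cryab lay at 0.48 and 0.54. Fabp3 lay at 6.44, 6.49 and 6.65 in lean and 7.79, 8.45 and 7.81 in obese rats, with obese 32 highest as for Myl4.

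Klhl31 lay at 4.21, 4.36 and 4.45 in lean and 5.31, 6.65 and 5.40 in obese rats, but its second, dimmer probe set differed by 0.091. Closest to the brightest Ldb3 probe set were Grb14, an adaptor that restrains insulin receptor signalling (0.13), the inositol transporter Slc2a13 (0.16), the acylphosphatase Acyp2 (0.17), Cdr2 (0.19) and the collagen Col8a1 (0.20), against a median of 0.60. Grb14 lay at 7.93, 7.88 and 8.22 in lean and 9.14, 9.29 and 8.79 in obese rats. Closest to Cryab were Cabcoco1 (0.11), Obp3 (0.19), Acyp2 (0.20), Hoga1, an enzyme of hydroxyproline breakdown (0.22), and Col8a1 (0.23), against a median of 0.67. Acyp2 and Col8a1 were near both Ldb3 and Cryab, and both had their lowest obese value on obese 42, at 5.20 and 6.82.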

How the data were processed

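The authors deposited log2 expression values per probe set; the submitters' processing notes name RMA and the affy package. Their versions, the chip definition and the arrays normalized as 1 set are not stated in the labels or headers. Of 31099 probe sets 57 controls were left out, and 31042 were tested with no filter on dim ones: 20826 had 1 gene symbol, 436 several and 9780 none, from a platform annotation that can be old. Differences between obese and lean rats (3 each) came from limma 3.58.1 under R 4.3.3 (lmFit and eBayes, two-sided, no covariate) with Benjamini-Hochberg adjustment over all probe sets. Lists used the brightest probe set of each of 14217 genes; 1 symbol was matched through the gene ID. Tables used Python 3.11.15 and pandas 2.3.3. The fit was tested on simulated data.

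The members and lists were chosen with earlier results of these data known. Named genes were all members, the 2 genes of each list with the smallest p, defining markers, and the 5 genes nearest each chosen member. RT1-Bb, Slc22a3, Adipoq, Cidea, Actg2, Cnn1, Acta2, Tnnc2, Tpm1, Eno3, Myh2, Myh4, Chrna1, Mybpc1 and Pln were chosen after their values were seen. So were Lmod1, Smtn, Myocd, Mybpc2 and Pygm. Alternatives were other scalings, dim probe set and gene-level choices, priors, weights, thresholds and left-out arrays. RMA moves probe sets near background little, so differences of dim ones may be understated. P-values measure the spread between rats, and the number of arrays limits the precision.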

Additional observations from a re-analysis of the deposited data

How the results depend on the processing

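All 16 probe sets of the 10 genes kept the sign of their difference in every alternative in which they could be computed. Myl4 ranged from 1.53 to 2.02, Cryab from 0.82 to 1.46 and the brightest Ldb3 probe set from 0.87 to 1.28. The mean of all Ldb3 probe sets gave 0.70. Called skeletal fibre probe sets stayed at 0 in all alternatives. The count of called probe sets over the whole table, 3, was 1 with 1 probe set per gene, 6 at an adjusted p under 0.10, 1 without lean 14 and obese 42 together, and 1 to 31 with each array left out in turn; the cause was not tested. No paired analysis was possible because the groups share no replicate numbers. Dim probe sets limit what can be said of Mylpf, Mb, the dim Ldb3 probe sets and the lower Acta1 values.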

Other observations

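Some other muscle genes had single arrays that stood apart, and were chosen after their values were seen. Chrna1, a subunit of the muscle acetylcholine receptor, lay at 4.70, 5.20 and 5.45 on lean 14, 18 and 19 and at 5.03, 6.27 and 5.73 on obese 29, 32 and 42, so obese 29 lay within the lean range, as it did for the brighter Tnnt3 probe set. The Chrna1 difference was 0.56 (SE 0.32, limma adjusted p = 0.526). Mybpc1, a slow fibre myosin binding protein, lay at 7.69 on obese 29 and at 6.03 to 6.47 on the other 5 arrays. Pln, phospholamban, which restrains the calcium pump of heart, slow fibres and smooth muscle, lay at 8.39 on lean 19 and at 5.50 to 6.68 elsewhere.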
